A study of Homo sapiens with 24 samples.

Results

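The effect of a drug pair was compared between control cells of 2 lung cancer lines, gene by gene, to find where the same treatment moved a transcript differently. PC9 and HCC4006 are established human lung adenocarcinoma lines with an activating EGFR mutation. The 12 libraries compared came from cells labelled CTRL, with 3 replicate libraries in each of 4 groups: PC9 under DMSO, PC9 under OT, HCC4006 under DMSO and HCC4006 under OT. DMSO is the solvent, and OT is osimertinib (100 nM, an inhibitor of mutant EGFR) combined with trametinib (30 nM, an inhibitor of the MEK kinases), both for 24 hours. The labels do not say how the CTRL cells were made. They also do not say whether replicates came from separate cultures, so every p-value here measures the spread between these libraries, which may be technical, and 2 lines do not stand for tumours in general. The study's other 12 libraries, from YAP1 knockout cells of both lines under the same treatments, served to look at the same quantity in separate libraries.

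The quantity described is the response of HCC4006 minus the response of PC9, each response being the OT mean minus the DMSO mean of log2(FPKM + 1). FPKM counts fragments relative to transcript length and to library size. Of 25365 gene rows, 11330 were tested, namely those reaching an FPKM of 1 in 3 or more of each line's 6 control libraries. A further 1316 rows passed in HCC4006 alone and 856 in PC9 alone, and have no tested difference. ZNF737 was just inside the filter, since the FPKM that decided its entry was 1.002 in PC9 and 1.52 in HCC4006. A difference below 0 means that OT lowered the transcript more, or raised it less, in HCC4006. The pseudocount of 1 makes each line's log2 response understate the change of transcripts with low FPKM, so a difference between the lines can come out smaller or larger than with a smaller pseudocount. For genes named here, the value with a smaller pseudocount is given where it ended a call. It is also given where a called difference in control cells turned its sign or moved by over 1.5 times. Differences that were not called, and control minus knockout values, could shift as much or turn sign without that value being given.

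Oncogenic EGFR signals through RAS, RAF, MEK and ERK, and through PI3K and AKT, to transcription factors that drive growth and division. In EGFR-mutant lung cells, blocking the receptor and MEK together withdraws those signals, and cells that survive stop dividing. Genes that act in mitosis are kept silent in resting cells by the DREAM complex and activated by B-MYB and FOXM1, often through a promoter element called the CHR. Enzymes of cholesterol synthesis are switched on by SREBP2 when sterols are short, and enzymes of serine and asparagine synthesis by ATF4 when amino acids are short.

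OT changed transcripts by larger amounts in HCC4006 than in PC9. Across the tested genes the SD of the response was 0.936 in HCC4006 and 0.590 in PC9, and the median size of a response was 0.505 and 0.297 on the log2 scale. In HCC4006 21.1% of the genes moved by at least 1 on that scale and 4.73% by at least 2, against 8.19% and 0.609% in PC9. The responses of the lines, which share no library, correlated across genes with a Pearson r of 0.742, a description over genes that are not independent. By limma with Benjamini-Hochberg adjustment over all tested genes, OT raised 3180 genes (28.1%) and lowered 4430 (39.1%) in PC9, and raised 4792 (42.3%) and lowered 4458 (39.3%) in HCC4006. The difference between the lines passed an adjusted p of 0.05 in 6885 genes, 60.8% of those tested, with the HCC4006 response higher in 3982 (35.1%) and lower in 2903 (25.6%). Of the called genes, 565 had an estimated difference of at least 2-fold, or 1 on the log2 scale, upward (4.99%) and 435 downward (3.84%). These are the 2-fold calls below, and their p-value tests against no difference. Of the 1000 genes, 207 had a group mean FPKM under 1 in either line. A limma test against a difference of 1 in size called 188 genes upward and 234 downward.

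Most called differences were differences in size and not in direction. Of the 6885 genes, 1628 fell in both lines and fell further in HCC4006, and 1472 rose in both and rose further in HCC4006. A larger response in PC9 was seen in 237 genes that fell in both and 169 that rose in both. OT raised 1324 genes in HCC4006 alone and lowered 671 in HCC4006 alone, while 191 rose and 431 fell in PC9 alone. Opposite responses were called for 476 genes that rose in HCC4006 and fell in PC9 (4.20%), and for 223 that fell in HCC4006 and rose in PC9 (1.97%). The remaining 63 called genes passed in neither line by itself. The median difference over all tested genes was 0.07, and the upward share of the calls, 57.8%, depended on how libraries were scaled. It was 46.7% after median-of-ratios scaling, where the median difference was -0.02. It was 71.6% with every library rescaled to the same FPKM sum and 74.4% when short RNAs were left out of that sum, where the medians were 0.22 and 0.25.

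**Figure D1:**
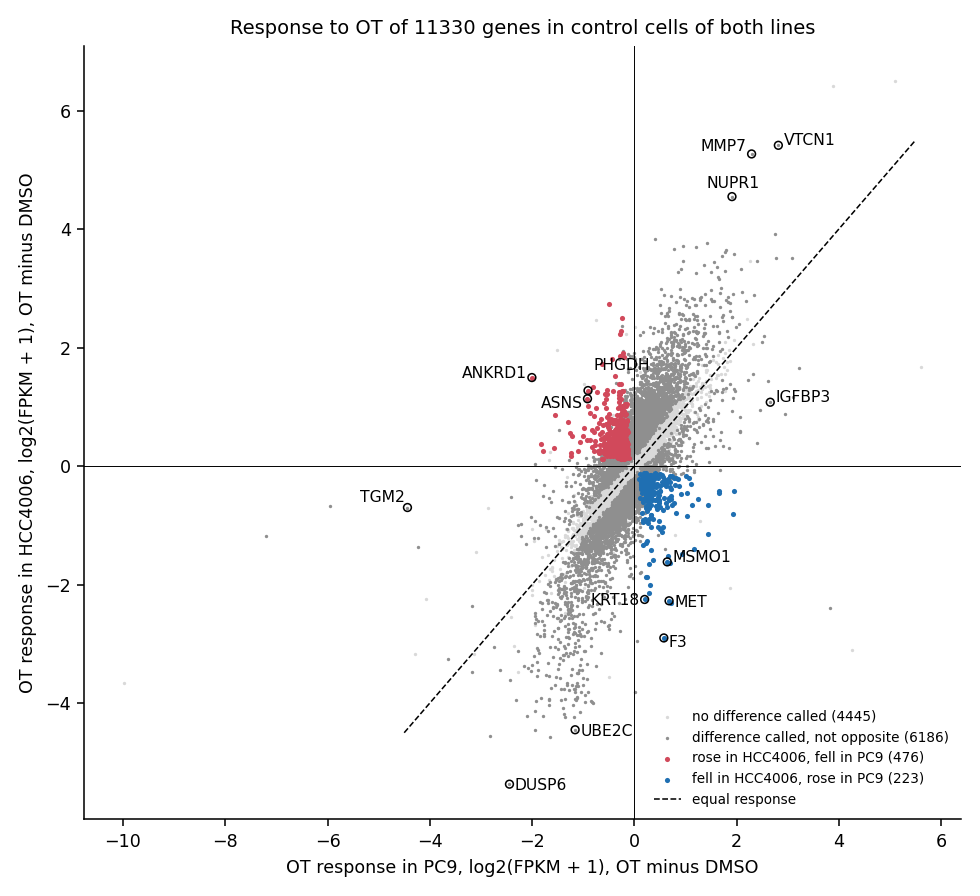
Each point is 1 of 11330 genes, with its OT response in PC9 on the x axis and in HCC4006 on the y axis, both as OT minus DMSO in log2(FPKM + 1), and colours mark genes called in opposite directions. The cloud is steeper than the dashed line of equal responses, and MET, F3, KRT18 and MSMO1 lie below 0 in HCC4006 and above 0 in PC9.

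The 12 control libraries had FPKM sums of 507120 to 660459, of which the rows of MIR1244 together took 2.54% to 8.13%, with the lower shares under OT. Their absolute depth is unknown, and their relative depth, read from the steps that single reads make in low genes, ranged from 0.945 to 1.42. The deepest library, replicate 1 of HCC4006 under OT, also had the lowest FPKM sum. Without it, 4152 genes were called upward and 2954 downward. Replicates correlated with r of 0.987 to 0.995. YAP1, the gene targeted in the knockout cells, had a mean FPKM of 12.1 in knockout and 42.9 in control PC9 cells under DMSO, and 4.24 and 18.2 in HCC4006. Of the lung markers, NKX2-1 was at 21.3 under DMSO and 53.8 under OT in HCC4006 and listed at 0 in PC9 under DMSO, while SFTPB was below 1 in every group.

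Genes of mitosis had the largest median difference of the 41 gene lists examined. All 32 tested genes of a G2/M list fell in both lines, and all 32 fell further in HCC4006, against 25.6% of all genes called in that direction (35.1% were called higher), shares against which the list counts below are to be read. Their median response was -1.12 in PC9 and -3.77 in HCC4006, and their median difference was -2.59 (range -3.29 to -1.24), against 0.07 over all genes. Before treatment the lines lay close together: the median HCC4006 minus PC9 difference of these genes was -0.05 under DMSO and -2.57 under OT, values that share libraries with the difference of responses.

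UBE2C encodes the ubiquitin-conjugating enzyme of the anaphase-promoting complex. Its FPKM was 233, 229 and 229.8 under DMSO and 99.6, 107 and 102 under OT in PC9. The values were 188, 213 and 190.0 under DMSO and 8.897, 7.66 and 7.59 under OT in HCC4006. The DMSO levels of the lines lay near each other, and the OT levels fell 2.24-fold in PC9 and 24.4-fold in HCC4006 with no overlap between any OT and DMSO group. The difference of the log2 responses was -3.29 ± 0.09 (SE, adjusted p = 1.70e-11). DLGAP5, a spindle protein, had a mean FPKM of 50.8 ± 2.44 (SD, n = 3) under DMSO and 27.9 ± 0.964 under OT in PC9. In HCC4006 it was 71.3 ± 6.45 and 3.63 ± 0.190, a difference of -3.12 ± 0.09 (SE, adjusted p = 3.10e-11). ANLN, an actin-binding protein of the cleavage furrow, differed by -3.05 ± 0.14 (SE, adjusted p = 1.11e-09), and MKI67, the antigen used to mark dividing cells, by -1.83 ± 0.12 (SE, adjusted p = 4.17e-08). CDK1 had log2 responses of -1.65 in PC9 and -4.58 in HCC4006, and CCNB2, its cyclin partner, -0.86 in PC9 and -3.03 in HCC4006.

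The promoters of CCNB2 and DLGAP5 are shown because their genes moved with the rest of the mitotic list and carry its 2 common promoter words. They are RefSeq promoters on build GRCh38.p14, from 250 bases before to 50 after the start, 5′ to 3′ on the gene's strand (CCNB2 at chr15:59104896-59105195, plus strand; DLGAP5 at chr14:55191536-55191835, minus strand). Capitals mark CCAAT, the word bound by NF-Y, and the CHR-like words TTTGAA and TTCGAA, each searched on both strands.
CCNB2: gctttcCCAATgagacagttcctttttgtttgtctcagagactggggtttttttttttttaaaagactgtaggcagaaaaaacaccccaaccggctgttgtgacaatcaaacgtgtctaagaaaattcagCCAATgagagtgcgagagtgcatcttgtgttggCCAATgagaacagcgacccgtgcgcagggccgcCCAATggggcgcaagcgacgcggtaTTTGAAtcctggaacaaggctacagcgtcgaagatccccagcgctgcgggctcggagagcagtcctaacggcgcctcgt
DLGAP5: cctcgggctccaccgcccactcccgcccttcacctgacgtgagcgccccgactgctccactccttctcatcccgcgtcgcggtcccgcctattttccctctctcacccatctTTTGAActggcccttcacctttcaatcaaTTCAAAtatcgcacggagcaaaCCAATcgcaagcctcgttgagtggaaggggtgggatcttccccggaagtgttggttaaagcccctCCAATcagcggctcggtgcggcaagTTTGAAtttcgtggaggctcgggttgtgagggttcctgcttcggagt
Of the 32 G2/M genes, 26 matched the table by symbol, with 31 promoters. TTTGAA or TTCGAA was present in 70.97% of them, against 16.4% of all 35116 promoters of that length, whether or not their genes were tested. For CCAAT the shares were 74.2% and 34.6%. For the 37 promoters of 28 S-phase genes the share with TTTGAA or TTCGAA was 5.41%. CCAAT was in 59.5% of those S-phase promoters, also above its share of all promoters. A match describes these letters and not a bound site, and a link between the words and the differences was not tested.

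S-phase genes, which encode the helicase, clamp, polymerases and nucleotide-making enzymes of DNA replication, fell in both lines in all 33 cases. The difference was called lower in HCC4006 for 29 and higher for 0, against 25.6% and 35.1% of all genes, with a median difference of -1.04. RRM2, the small subunit of ribonucleotide reductase, had FPKM of 61.7, 63.4 and 61.3 under DMSO and 15.1, 16.3 and 15.1 under OT in PC9. It had 64.4, 64.9 and 63.8 under DMSO and 2.74, 1.92 and 1.42 under OT in HCC4006, so the lines overlapped in neither OT group, and their DMSO values were close. The difference was -2.52 ± 0.16 (SE, adjusted p = 2.32e-08). TYMS, thymidylate synthase, differed by -2.26 ± 0.07 (SE, adjusted p = 2.80e-11) and GINS2, a subunit of the replicative helicase, by -2.11 ± 0.13 (SE, adjusted p = 2.15e-08). CCNE1, GINS3, POLD1 and POLE were the S-phase members without a called difference. Ribosome biogenesis genes fell in 29 of 30 cases in PC9 and in all in HCC4006, with the difference lower in HCC4006 for 27, against 25.6% of all genes, and a median difference of -0.58.

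Most direct outputs of the MAPK pathway fell in both lines. Of 19 tested members of that list, 17 fell in PC9 and 18 in HCC4006. The difference was lower in HCC4006 for 13 and higher for 3, against 25.6% and 35.1% of all genes, with a median of -0.71. CCND1, cyclin D1, had FPKM of 78.9, 81.6 and 74.6 under DMSO and 35.2, 31.5 and 32.9 under OT in PC9. It had 116, 111 and 115 under DMSO and 9.84, 7.42 and 6.68 under OT in HCC4006. HCC4006 started above PC9 and ended below it, and the difference was -2.48 ± 0.14 (SE, adjusted p = 7.80e-09). MYC fell from 41.02 ± 1.17 (SD, n = 3) to 27.9 ± 0.847 in PC9 and from 11.5 ± 0.237 to 1.92 ± 0.302 in HCC4006, a difference of -1.56 ± 0.09 (SE, adjusted p = 1.62e-08). PHLDA1, an early-response gene, differed by -1.73 ± 0.13 (SE, adjusted p = 1.37e-07).

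DUSP6, the phosphatase that dephosphorylates ERK and a common readout of ERK activity, started at different levels in the lines. Its FPKM was 4.68, 4.74 and 5.35 under DMSO and 0, 0.166 and 0.106 under OT in PC9. It was 52.7, 55.2 and 55.1 under DMSO and 0.860, 0.222 and 0.0575 under OT in HCC4006. Under OT all 6 libraries were below 1 and the lines overlapped, while under DMSO HCC4006 was far above PC9. The difference was -2.93 ± 0.22 (SE, adjusted p = 1.23e-07), and with a pseudocount of 0.01 it was -1.45 (adjusted p = 0.374). ETV4, ETV5, SPRED1, SPRED2 and FOSL1, other ERK-dependent genes, differed by 0.38, -0.04, -0.25, -0.14 and -0.30, of which ETV4 and FOSL1 were called. With pseudocounts of 0.1 and 0.01 ETV4 changed sign, to -1.22 (adjusted p = 0.0346) and -1.94 (adjusted p = 0.0251), and FOSL1 was at -0.73 and -0.79.

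**Figure D2:**
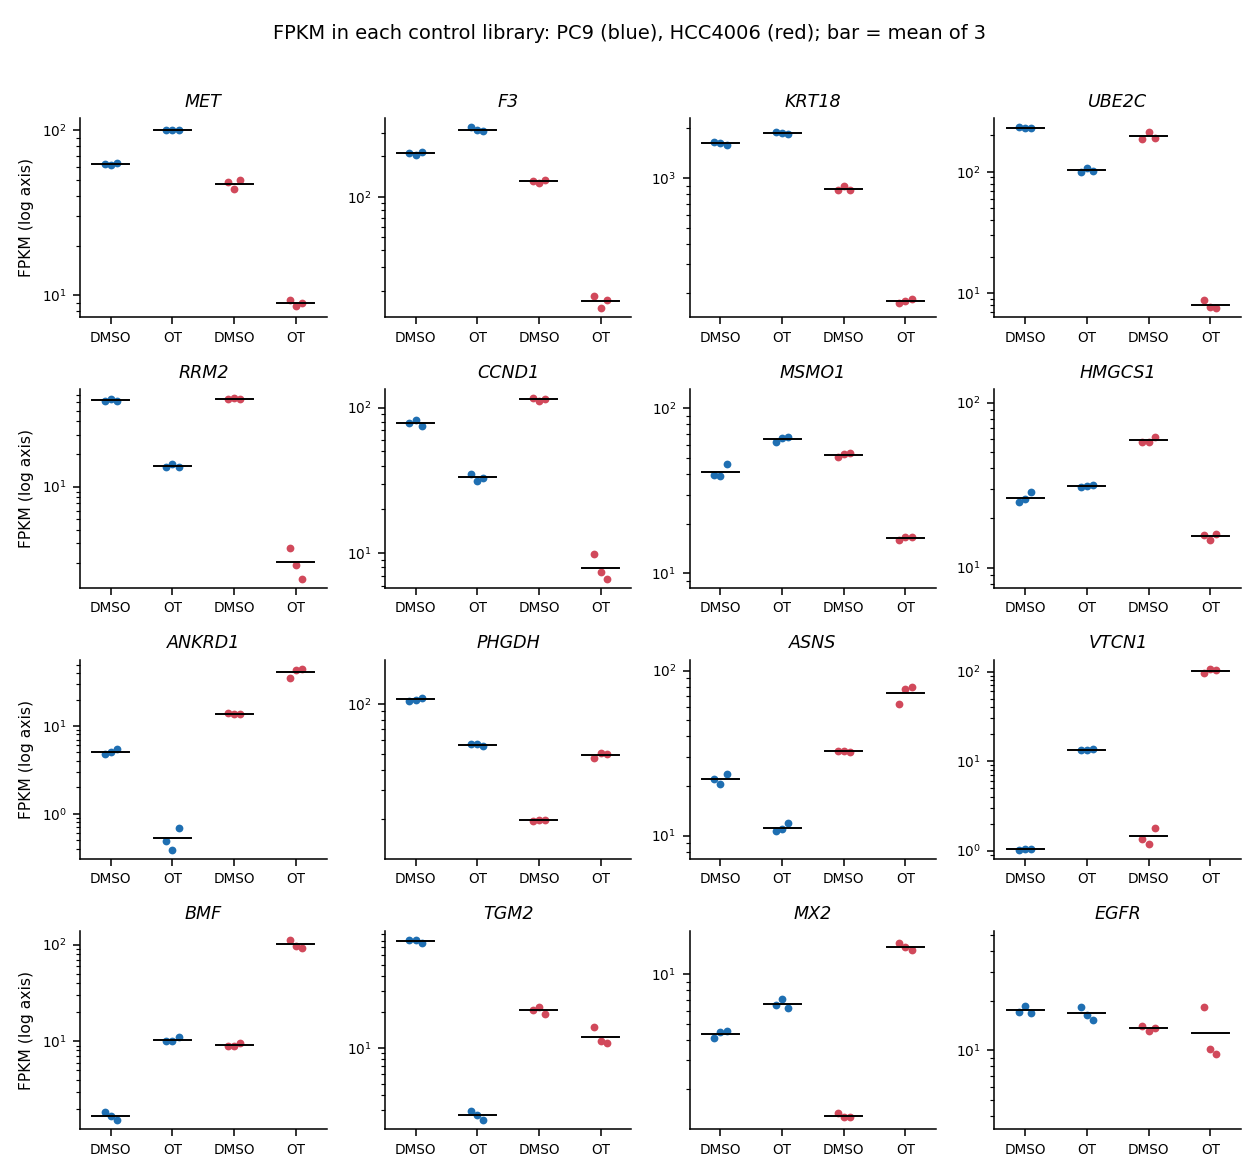
FPKM in each of the 12 control libraries for 16 genes, with PC9 in blue and HCC4006 in red, a log axis of FPKM and a bar at the mean of 3 libraries. MET, F3, KRT18 and MSMO1 rise in PC9 and drop in HCC4006, UBE2C and RRM2 drop in both and further in HCC4006, and EGFR under OT in HCC4006 has 1 library at 18.4 apart from 10.2 and 9.46.

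Among receptors and their ligands the gene with the largest difference was MET, which encodes the receptor for hepatocyte growth factor. Its FPKM was 62.5, 61.2 and 63.2 under DMSO and 100.2, 101 and 100.1 under OT in PC9. It was 48.5, 43.9 and 49.9 under DMSO and 9.39, 8.62 and 9.02 under OT in HCC4006. The 4 groups did not overlap: MET rose 1.61-fold in PC9 and fell 5.27-fold in HCC4006, a difference of -2.95 ± 0.07 (SE, adjusted p = 1.29e-11). EGFR itself had FPKM of 17.1, 18.5 and 16.9 under DMSO and 18.4, 16.4 and 15.4 under OT in PC9, and 14.03, 13.02 and 13.7 under DMSO and 18.4, 10.2 and 9.46 under OT in HCC4006. Its difference was -0.09 ± 0.24 (SE, adjusted p = 0.772) with all libraries and -0.37 (adjusted p = 0.00494) without replicate 1 of HCC4006 under OT. ERBB2 and ERBB3, partners of EGFR, rose in both lines and rose more in HCC4006, by 0.91 ± 0.06 (SE, adjusted p = 9.03e-08) and 0.60 ± 0.07 (SE, adjusted p = 8.28e-06).

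Ligands and feedback regulators of the receptor differed in both directions. ERRFI1, a feedback inhibitor that binds EGFR, fell further in HCC4006, with a difference of -1.23 ± 0.06 (SE, adjusted p = 5.09e-09). TGFA, a ligand of EGFR, did likewise (-1.04 ± 0.09, SE, adjusted p = 4.00e-07), and AREG, another ligand, differed by -0.95 ± 0.12 (SE, adjusted p = 2.59e-05), a call lost with a pseudocount of 0.01 (-0.58, adjusted p = 0.277). HBEGF, heparin-binding EGF, had FPKM of 4.06, 4.01 and 4.64 under DMSO and 0.402, 0.395 and 0.611 under OT in PC9. It had 1.55, 1.57 and 1.804 under DMSO and 2.44, 2.404 and 2.36 under OT in HCC4006, so it fell in PC9 and rose in HCC4006, with a difference of 2.1999 ± 0.11 (SE, adjusted p = 3.05e-09), which was 3.47 and 3.72 with pseudocounts of 0.1 and 0.01. IGF1R, the receptor of insulin-like growth factor, rose in both lines and more in HCC4006, by 1.16 ± 0.13 (SE, adjusted p = 5.02e-06). Over the list of ERBB receptors and their inhibitors the counts were 4 of 7 higher and 1 lower, with a median of 0.21. Over the other receptor tyrosine kinases they were 2 of 7 higher and 1 lower, with a median of 0.08, a median that changed sign in 2 of 25 settings. These lists are short, and their counts stand beside 35.1% of all genes called higher and 25.6% lower.

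In control cells cholesterol synthesis separated the lines in direction. Of 25 tested genes of the list, 13 rose and 3 fell in PC9, whereas 1 rose and 23 fell in HCC4006. The difference was lower in HCC4006 for 23 and higher for 1, against 25.6% and 35.1% of all genes, with a median of -1.49. The median responses were 0.19 and -1.26, against -0.06 and 0.03 over all genes. 11 of the genes rose in PC9 and fell in HCC4006 with the difference called, against 1.97% of all genes. Before treatment HCC4006 was the higher line, with a median difference of 0.71 under DMSO, and under OT it was the lower one, at -0.84. In YAP1 knockout cells the median response of the list was -0.02 in PC9 and -1.37 in HCC4006, with a median difference of -1.44. The fall in HCC4006 was thus seen in both genotypes, and the rise of the PC9 median in control cells only.

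HMGCS1 makes the HMG-CoA from which the pathway starts. Its FPKM was 24.9, 26.2 and 28.7 under DMSO and 30.99, 31.5 and 31.7 under OT in PC9. It was 57.6, 57.5 and 62.2 under DMSO and 15.8, 14.7 and 16.02 under OT in HCC4006. The groups of HCC4006 were apart by 3.81-fold and those of PC9 by 1.18-fold in the other direction, a difference of -2.097 ± 0.08 (SE, adjusted p = 2.75e-10). MSMO1, which removes methyl groups from the sterol ring, had 39.5, 38.6 and 45.9 under DMSO and 62.3, 66.01 and 66.8 under OT in PC9. It had 50.9, 52.9 and 53.3 under DMSO and 15.98, 16.7 and 16.5 under OT in HCC4006, and its difference was -2.26 ± 0.08 (SE, adjusted p = 2.20e-10). DHCR7, which catalyses the last step, differed by -1.95 ± 0.13 (SE, adjusted p = 3.67e-08).

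SQLE, squalene epoxidase, responded by 0.29 in PC9 and -1.65 in HCC4006. INSIG1, the retention factor of SREBP in the endoplasmic reticulum, differed by -1.62 ± 0.12 (SE, adjusted p = 1.16e-07) and fell in HCC4006 alone. The gene of SREBP2 itself, SREBF2, responded by 0.55 in PC9 and -0.19 in HCC4006. The exceptions were TM7SF2, a sterol reductase that rose in both lines and more in HCC4006 (0.75 ± 0.10, SE, adjusted p = 4.09e-05), and SC5D, a sterol desaturase whose difference of -0.15 was not called.

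Promoters of MSMO1 and MVD are printed because these enzymes of 1 pathway rose in PC9 and fell in HCC4006 together. They come from the same RefSeq table, with CCAAT on either strand in capitals (MSMO1 at chr4:165327419-165327718, plus strand; MVD at chr16:88663042-88663341, minus strand).
MSMO1: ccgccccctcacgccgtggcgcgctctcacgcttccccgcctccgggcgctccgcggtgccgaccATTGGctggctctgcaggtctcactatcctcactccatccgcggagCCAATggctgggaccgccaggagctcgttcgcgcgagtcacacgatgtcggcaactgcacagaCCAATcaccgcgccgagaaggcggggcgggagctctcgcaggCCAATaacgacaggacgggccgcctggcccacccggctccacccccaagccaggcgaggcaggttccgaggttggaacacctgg
MVD: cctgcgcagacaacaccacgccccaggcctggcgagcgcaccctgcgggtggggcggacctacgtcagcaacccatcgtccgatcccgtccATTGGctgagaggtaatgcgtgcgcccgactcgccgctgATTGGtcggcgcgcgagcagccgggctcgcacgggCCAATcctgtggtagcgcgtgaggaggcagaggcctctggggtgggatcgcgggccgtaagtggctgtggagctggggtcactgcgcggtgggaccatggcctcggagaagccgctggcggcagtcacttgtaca
MSMO1 held 4 copies of CCAAT and MVD 3. In the list, 18 of 25 tested genes matched, and 68% of their 25 promoters held CCAAT, against 34.6% of all promoters. The words TTTGAA and TTCGAA were in 8% of them. The 31 promoters of the ATF4 list held CCAAT in 51.6%, and a link between the word and the differences was not tested.

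Most called members of other metabolic and housekeeping lists were also lower in HCC4006, by smaller amounts, beside 25.6% of all genes called lower and 35.1% higher. For fatty acid synthesis and desaturation the difference was 2 of 17 higher and 10 lower, with a median of -0.36. SCD, the stearoyl-CoA desaturase, fell from 45.9 ± 3.22 (SD, n = 3) to 6.87 ± 0.908 in HCC4006 and from 15.5 ± 1.81 to 10.9 ± 0.969 in PC9, a difference of -2.12 ± 0.14 (SE, adjusted p = 3.28e-08). For glycolysis the counts were 2 of 23 higher and 13 lower, with a median of -0.37. LDHA, lactate dehydrogenase A, fell 3.84-fold in HCC4006 and 1.61-fold in PC9, a difference of -1.24 ± 0.06 (SE, adjusted p = 1.77e-09). GAPDH, often used as a reference transcript, fell further in HCC4006, with a difference of -0.84 ± 0.09 (SE, adjusted p = 2.69e-06). Nuclear genes of oxidative phosphorylation gave 0 of 30 higher and 26 lower, with a median of -0.45, and 24 of them fell in HCC4006 against 8 in PC9. Proteasome subunits gave 0 of 27 higher and 24 lower, with a median of -0.38, and heat shock chaperones 3 of 16 higher and 10 lower, with a median of -0.39, with HSPB1 the largest exception at 1.26. Chaperones of the endoplasmic reticulum gave 3 of 18 higher and 9 lower, with a median of -0.18, a median that changed sign in 1 of 25 settings. Over those settings the median was -0.59 to -0.17 for fatty acid genes, -0.48 to -0.18 for glycolysis, -0.55 to -0.25 for oxidative phosphorylation, -0.49 to -0.19 for the proteasome and -0.50 to -0.20 for heat shock chaperones.

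Genes controlled by ATF4 moved the other way. Of 24 tested, the HCC4006 response was higher for 19 and lower for 1, against 35.1% and 25.6% of all genes, with a median difference of 0.81. In PC9 17 fell and 7 rose, and in HCC4006 15 rose and 5 fell. PHGDH is the first enzyme of serine synthesis. Its FPKM was 105, 106 and 109 under DMSO and 56.9, 56.97 and 55.5 under OT in PC9. It was 19.5, 19.8 and 19.6 under DMSO and 46.9, 50.3 and 49.9 under OT in HCC4006. The gap between the lines narrowed from 107 against 19.7 under DMSO to 56.4 against 49.03 under OT, and the difference was 2.18 ± 0.06 (SE, adjusted p = 1.70e-11).

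ASNS, asparagine synthetase, had FPKM of 21.9, 20.5 and 23.7 under DMSO and 10.6, 11.02 and 11.9 under OT in PC9. It had 32.4, 32.6 and 32.2 under DMSO and 62.5, 76.9 and 79.1 under OT in HCC4006, and its difference was 2.05 ± 0.11 (SE, adjusted p = 8.71e-09). PSAT1 and MTHFD2, which act in serine synthesis and in mitochondrial folate metabolism, responded by -1.78 in PC9 and 0.25 in HCC4006 and by -1.25 in PC9 and 0.22 in HCC4006. PCK2, the mitochondrial form of phosphoenolpyruvate carboxykinase, fell in PC9 and rose in HCC4006, a difference of 2.504 ± 0.09 (SE, adjusted p = 1.65e-10). NUPR1, a stress-induced chromatin protein, rose in both lines, 4.52-fold in PC9 and 24.5-fold in HCC4006. ATF4 mRNA itself responded by -0.22 in PC9 and 0.58 in HCC4006. VLDLR was the exception, which rose in PC9 and fell in HCC4006, with a difference of -1.27 ± 0.08 (SE, adjusted p = 1.77e-08). Cytosolic tRNA synthetases gave 10 of 19 higher and 4 lower, beside 35.1% and 25.6% of all genes, with a median of 0.23, and AARS, CARS and YARS, the synthetases of alanine, cysteine and tyrosine, rose in HCC4006 and fell in PC9, with differences of 0.92, 1.04 and 0.80.

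**Figure D3:**
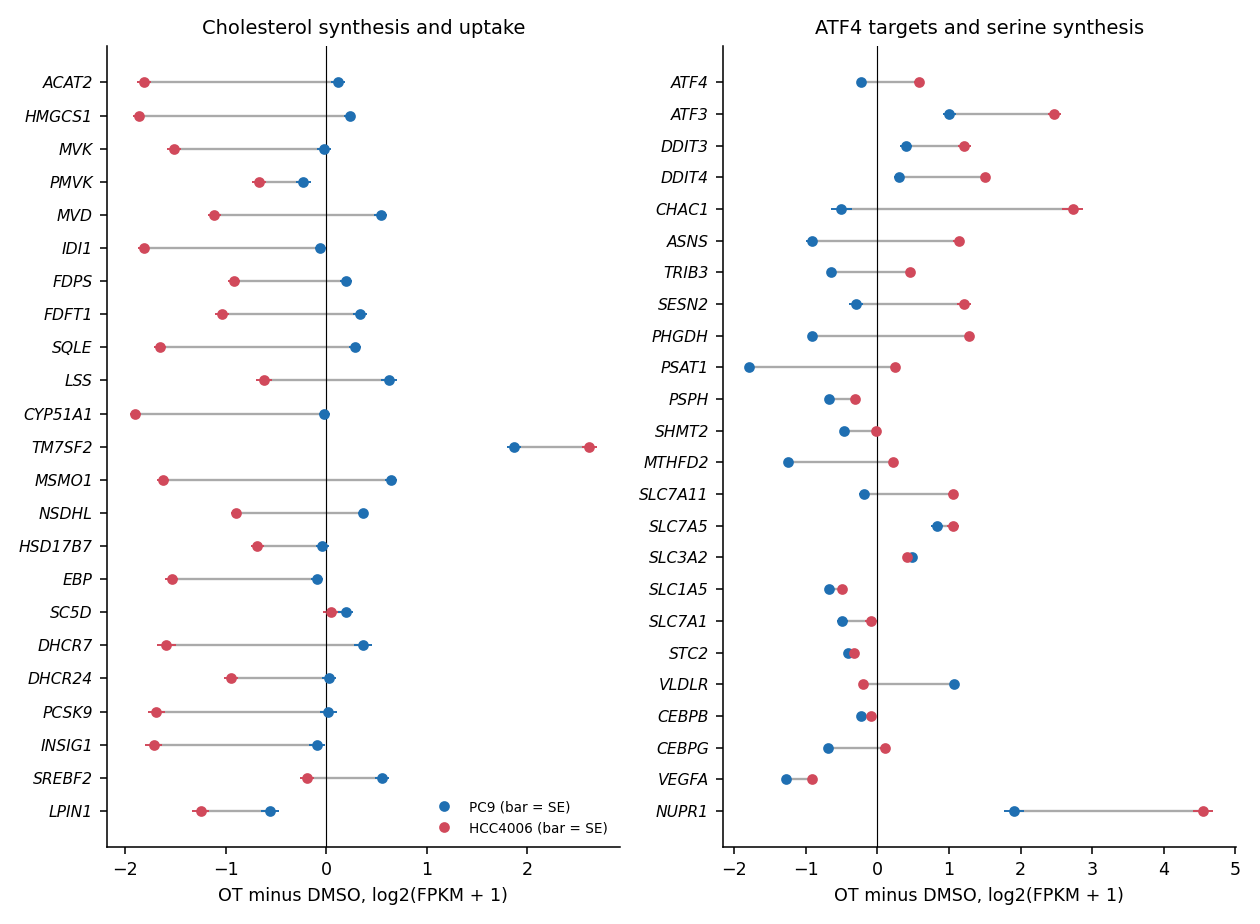
Responses to OT of 23 tested genes of the cholesterol list (left) and the ATF4 list (right), in log2(FPKM + 1), with PC9 in blue, HCC4006 in red and bars of 1 SE. On the left 21 of 23 red points lie left of the blue with the difference called, and on the right 19 of 24 lie right of it.

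Most interferon-response genes rose under OT. In PC9 23 of 32 rose and 3 fell, and in HCC4006 27 rose and 2 fell. The difference was higher in HCC4006 for 20 and lower for 3, against 35.1% and 25.6% of all genes, with a median of 0.51. The number called higher was 9 to 24 over 25 settings, whose filters can change how many members are tested, and the median was 0.42 to 0.67. MX2, an antiviral GTPase, had FPKM of 4.09, 4.43 and 4.49 under DMSO and 6.53, 7.05 and 6.19 under OT in PC9. It had 1.43, 1.36 and 1.37 under DMSO and 15.4, 14.5 and 14.1 under OT in HCC4006. HCC4006 was the lower line under DMSO and the higher one under OT, a difference of 2.21 ± 0.09 (SE, adjusted p = 3.26e-10). OAS1, which senses double-stranded RNA, rose in HCC4006 alone (1.76 ± 0.13, SE, adjusted p = 9.04e-08), as did IFI35 (1.66 ± 0.10, SE, adjusted p = 1.50e-08). IFIT2, IFITM2 and ISG15 were the members called lower in HCC4006, at -0.78, -0.87 and -0.47, and with a pseudocount of 0.01 IFIT2 was at -1.23.

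For presentation of antigens on MHC class I, all 6 tested genes rose in HCC4006 and had a higher response there, against 35.1% of all genes, with a median difference of 1.18. PSMB10, a subunit of the immunoproteasome, rose from 26.4 ± 3.06 (SD, n = 3) to 135 ± 17.6 in HCC4006 and from 37.1 ± 1.497 to 75.2 ± 3.598 in PC9. ERAP1, which trims peptides, and TAPBPL, which edits them, differed by 1.17 ± 0.11 (SE, adjusted p = 1.34e-06) and 1.18 ± 0.08 (SE, adjusted p = 4.54e-08). The other 10 rows of the list, among them HLA-B, HLA-C, TAP1 and TAP2, are listed at 0 in all 12 libraries, so the list rests on few genes. VTCN1, the checkpoint ligand B7-H4, had FPKM of 1.03, 1.04 and 1.06 under DMSO and 13.3, 13.3 and 13.6 under OT in PC9. It had 1.34, 1.196 and 1.81 under DMSO and 96.7, 107 and 105 under OT in HCC4006, and its difference was 2.597 ± 0.11 (SE, adjusted p = 6.48e-10). CD47, the signal against phagocytosis, rose in HCC4006 alone (1.25 ± 0.09, SE, adjusted p = 5.80e-08). The checkpoint ligands together gave 6 of 8 higher and 1 lower, beside those same shares of all genes, with a median of 0.61 (0.29 to 0.78 over 25 settings).

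Lysosomal and secretory genes were called in both directions. Lysosome and autophagy genes gave 16 of 30 higher and 6 lower, beside 35.1% and 25.6% of all genes, with a median of 0.25 (0.14 to 0.44 over 25 settings), and GRN, progranulin, rose 1.89-fold in PC9 and 4.34-fold in HCC4006. CTSS, cathepsin S, rose in both and further in HCC4006, by 2.503 ± 0.11 (SE, adjusted p = 9.49e-10). Among mucins and secreted glycoproteins the counts were 5 of 9 higher and 3 lower, with a median of 1.08. Over 25 settings, whose filters can change how many members are tested, that median was 0.16 to 1.55, with 5 to 8 called higher and 1 to 4 lower. MUC1, a membrane mucin, differed by 1.74 ± 0.13 (SE, adjusted p = 1.02e-07), and SLPI, a secreted protease inhibitor, by 2.77 ± 0.14 (SE, adjusted p = 4.25e-09). MMP7, matrilysin, had FPKM of 0.570, 0.644 and 0.938 under DMSO and 5.15, 5.93 and 12.8 under OT in PC9. It had 9.31, 10.9 and 10.7 under DMSO and 384, 440.4 and 480.3 under OT in HCC4006, where 1 PC9 library under OT lay above the HCC4006 libraries under DMSO and the others below them. MMP7 rose 11.1-fold in PC9 and 42.3-fold in HCC4006. Its difference was 2.97 ± 0.31 (SE, adjusted p = 3.73e-06), and with pseudocounts of 0.1 and 0.01 it was 2.18 and 2.03. SELENBP1, selenium-binding protein, differed by 2.901 ± 0.09 (SE, adjusted p = 3.96e-11).

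Of the 32 tested epithelial junction genes and keratins, 15 were higher and 7 lower in HCC4006, beside 35.1% and 25.6% of all genes, with a median of 0.16 (0.06 to 0.36 over 25 settings). KRT18, a keratin of simple epithelia, had FPKM of 1659, 1628 and 1593 under DMSO and 1889.9, 1869 and 1854 under OT in PC9. It had 842, 895 and 845 under DMSO and 175, 179 and 186 under OT in HCC4006. Levels rose in PC9 and fell 4.78-fold in HCC4006 without overlap, a difference of -2.45 ± 0.07 (SE, adjusted p = 2.51e-11). Its partner KRT8 differed by -1.15 ± 0.07 (SE, adjusted p = 2.88e-08), KRT19 by -1.202 ± 0.09 (SE, adjusted p = 2.34e-07) and KRT7 by -1.07 ± 0.08 (SE, adjusted p = 1.55e-07), all 4 lower in HCC4006. Of the other keratins tested KRT81 was higher, at 1.03, and KRT80 was not called, at 0.10. Among the members called higher OCLN, occludin, differed by 1.51 ± 0.09 (SE, adjusted p = 1.69e-08), CLDN7, a claudin, by 1.34 ± 0.07 (SE, adjusted p = 4.20e-09), and DSP, desmoplakin, by 1.24 ± 0.10 (SE, adjusted p = 2.29e-07). CDH1 (E-cadherin) and EPCAM differed by -0.05 and 0.22 and were not called. The other 3 members called lower were CLDN4, a claudin, at -0.51, PKP2, plakophilin 2, at -0.38, and JUP, plakoglobin, at -0.34.

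Markers of other cell types were measured beside these results. The summed FPKM of 6 epithelial markers was 6495 to 6643 under DMSO and 9288 to 9582 under OT in PC9, and 6038 to 6388 and 4301 to 4663 in HCC4006. The sum of 9 fibroblast markers stayed between 1.42 and 2.30 in PC9 and was 5.61 to 6.23 under DMSO and 20.9 to 22.1 under OT in HCC4006. The sum of 8 leukocyte markers was 30.1 to 36.7 in PC9 and 21.9 to 25.002 and 84.5 to 87.3 in HCC4006, of which CD68 alone made 81.5, 83.4 and 83.6 under OT. The sum of 6 endothelial markers was 0.695 to 0.977 in PC9, and 0.352 to 0.517 under DMSO and 5.41 to 6.72 under OT in HCC4006. The part of these markers in the differences was not tested. Among mesenchymal genes the difference gave 8 of 16 higher and 6 lower, beside 35.1% and 25.6% of all genes, with a median of 0.13, and SPARC, a matrix protein that also marks fibroblasts, rose further in HCC4006 by 1.18 ± 0.07 (SE, adjusted p = 1.60e-08).

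The study's title concerns apoptosis, so the BCL2 family is described. Of 10 tested pro-apoptotic members 4 were higher and 2 lower, shares near the 35.1% and 25.6% of all genes, with a median of 0.24 (0.14 to 0.43 over 25 settings). BMF, a BH3-only protein that binds survival proteins, had FPKM of 1.82, 1.68 and 1.51 under DMSO and 10.1, 10.00 and 10.98 under OT in PC9. It had 8.89, 8.96 and 9.52 under DMSO and 112, 97.7 and 92.8 under OT in HCC4006, and PC9 under OT lay just above HCC4006 under DMSO. BMF rose 6.201-fold in PC9 and 11.1-fold in HCC4006, and the log2 difference was 1.24 ± 0.10 (SE, adjusted p = 3.23e-07), with 0.88 and 0.83 at pseudocounts of 0.1 and 0.01. BBC3, which encodes PUMA, rose in both lines and further in HCC4006 (1.69 ± 0.21, SE, adjusted p = 1.60e-05), and BIK rose in HCC4006 alone (1.75 ± 0.22, SE, adjusted p = 1.57e-05). BCL2L11, which encodes BIM, had a difference of 0.34 ± 0.13 (SE, adjusted p = 0.0340), with 0.51 and 0.54 at those pseudocounts. That call was lost without the filter, after median-of-ratios scaling, with a replicate block and on leaving out any of 8 libraries (PC9 under DMSO replicates 1 or 2, PC9 under OT 1, 2 or 3, HCC4006 under DMSO 1 or 3, HCC4006 under OT 1, adjusted p = 0.0531 to 0.0835). BID and BOK were lower in HCC4006, at -0.62 and -0.42, and PMAIP1, BAD, BAX and BAK1 differed by -0.08, 0.22, 0.26 and 0.06 without a call.

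Among survival genes 3 of 7 were higher and 0 lower, beside 35.1% and 25.6% of all genes, with a median of 0.24. BCL2L1, which encodes BCL-XL, fell in both lines, and its difference was 0.09 ± 0.10 (SE, adjusted p = 0.430), called after scaling to the same FPKM sum (0.25, adjusted p = 0.0199) and with short RNAs left out of that sum (0.28, adjusted p = 0.00959). MCL1 differed by 0.24 ± 0.06 (SE, adjusted p = 0.00318), a call lost after median-of-ratios scaling (0.13, adjusted p = 0.0575), and CFLAR, an inhibitor of caspases, by 0.96 ± 0.10 (SE, adjusted p = 2.49e-06). BIRC3, an inhibitor of apoptosis, differed by 0.65 (adjusted p = 0.000541), and BIRC2, XIAP and BCL2L2 differed by 0.24, 0.03 and -0.03 without a call. Targets of p53 gave 13 of 19 higher and 1 lower, with a median of 0.56. MDM2, the ligase that degrades p53, had FPKM of 7.64, 12.1 and 27.1 in HCC4006 under OT, a wide spread, and its difference of 1.11 ± 0.41 (SE, adjusted p = 0.0325) was lost on leaving out any of 7 libraries (PC9 under DMSO replicates 1, 2 or 3, PC9 under OT 1 or 2, HCC4006 under DMSO 1 or 2, adjusted p = 0.0509 to 0.0696) and without the filter on low values (1.11, adjusted p = 0.0641).

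By adjusted p alone, targets of YAP and TEAD were called in both directions at shares near those of all genes. At least 2-fold differences were more frequent than over all genes. They were called for 4 of the 24 tested upward and 5 downward, against 4.99% and 3.84% of all genes. Of 24 tested genes of the signature 10 were higher and 6 lower in HCC4006, against 35.1% and 25.6% of all genes, with a median of -0.03 that changed sign in 5 of 25 settings. ANKRD1, a muscle ankyrin-repeat protein and common YAP readout, had FPKM of 4.74, 5.05 and 5.49 under DMSO and 0.489, 0.390 and 0.689 under OT in PC9. It had 13.9, 13.6 and 13.8 under DMSO and 34.9, 42.9 and 44.5 under OT in HCC4006. OT took it below 1 in PC9 and raised it 2.96-fold in HCC4006, a difference of 3.497 ± 0.13 (SE, adjusted p = 1.99e-10). F3, tissue factor, had 212, 206 and 216 under DMSO and 328, 311 and 309 under OT in PC9. It had 132, 127 and 134 under DMSO and 18.2, 14.9 and 16.98 under OT in HCC4006, so it rose in PC9 and fell 7.83-fold in HCC4006 (-3.48 ± 0.09, SE, adjusted p = 1.29e-11). NT5E, the ectoenzyme CD73, fell in both lines and further in HCC4006 (-3.14 ± 0.09, SE, adjusted p = 2.80e-11).

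The matricellular genes CTGF and CYR61, the best known YAP targets, rose in both lines, with differences of -0.05 ± 0.12 (SE, adjusted p = 0.734) and -0.06 ± 0.09 (SE, adjusted p = 0.571). AXL, a receptor tyrosine kinase, differed by 0.01 ± 0.06 (SE, adjusted p = 0.866) and YAP1 by 0.09 ± 0.10 (SE, adjusted p = 0.419). A p above 0.05 does not show that these 4 responses were equal. AMOTL2 and AJUBA, which act in the Hippo pathway, rose further in HCC4006, by 1.25 ± 0.10 (SE, adjusted p = 2.78e-07) and 1.02 ± 0.09 (SE, adjusted p = 6.70e-07). Focal adhesion and actin genes gave 13 of 33 higher and 12 lower, with the 35.1% of all genes near the first count and the 25.6% below the second, and a median of -0.01, a median that changed sign in 4 of 25 settings.

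**Figure D4:**
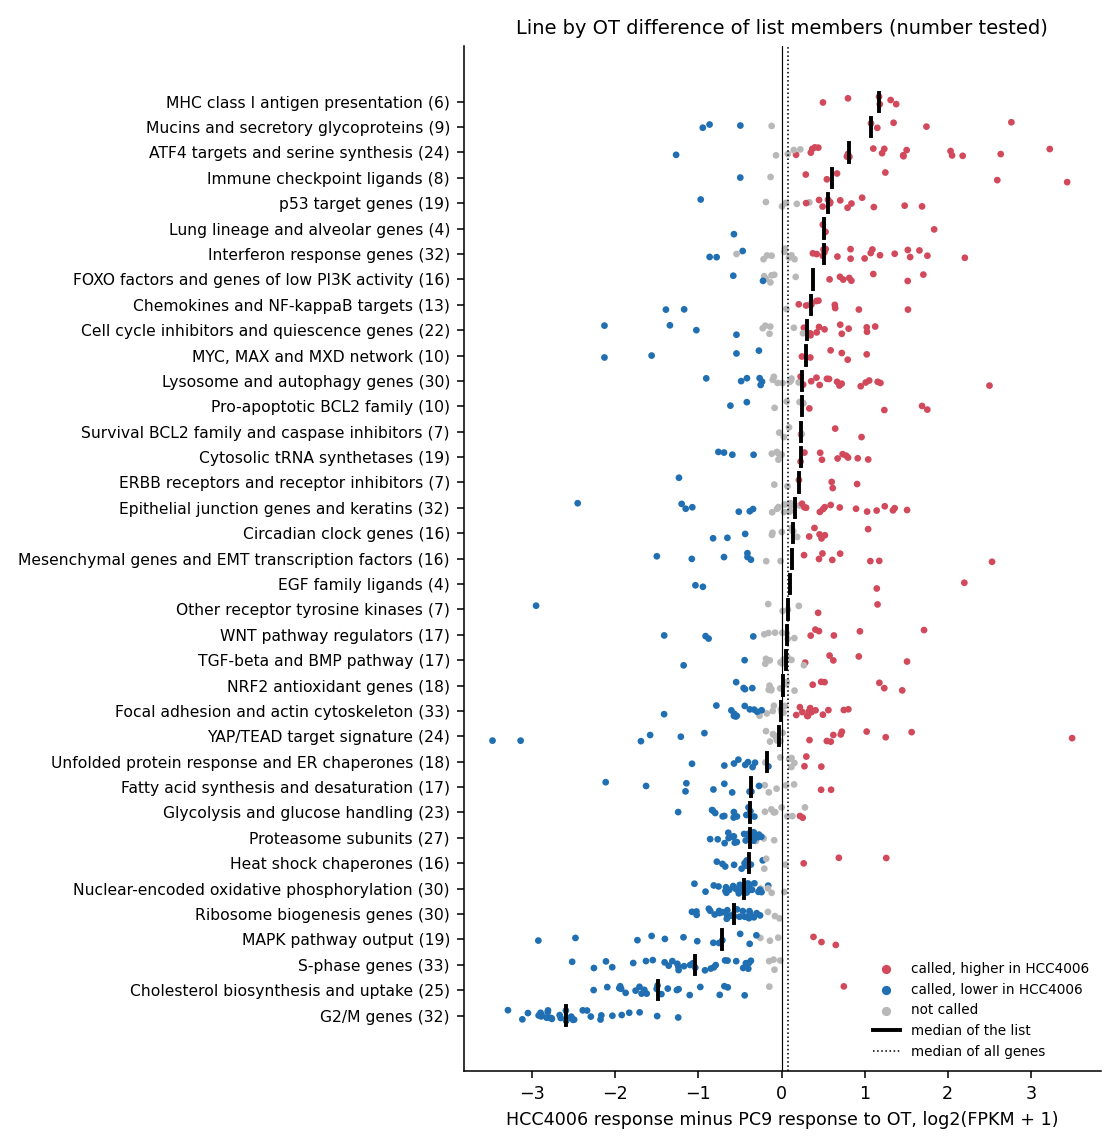
The difference between the lines (HCC4006 response minus PC9 response, log2(FPKM + 1)) for the tested members of each list, 1 point per gene, coloured by whether it was called higher (red), lower (blue) or neither (grey), with a bar at the list's median. G2/M genes lie left of 0 in all 32 cases and the cholesterol list in all but TM7SF2, while the ATF4 and MHC class I lists lie mostly right of it.

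Opposite responses were also called in genes of diverse function. Among those that rose in HCC4006 and fell in PC9 were NFE2L3, a transcription factor related to NRF2 (2.43 ± 0.07, SE, adjusted p = 3.69e-11), SOCS2, a suppressor of cytokine signalling (2.25 ± 0.11, SE, adjusted p = 2.04e-09), and FBP1, a gluconeogenic enzyme (2.12 ± 0.12, SE, adjusted p = 8.48e-09). CD68, a lysosomal glycoprotein, and EFNB2, an ephrin, differed by 2.05 ± 0.07 (SE, adjusted p = 9.69e-11) and 2.05 ± 0.11 (SE, adjusted p = 5.66e-09). Among those that fell in HCC4006 and rose in PC9 were CDC42EP2, an effector of CDC42 (-3.03 ± 0.08, SE, adjusted p = 1.46e-11), AQP3, a channel for water and glycerol (-2.74 ± 0.11, SE, adjusted p = 4.31e-10), and BPGM, which makes bisphosphoglycerate (-2.58 ± 0.09, SE, adjusted p = 1.60e-10). SLC22A18, a transporter, and GLRX, glutaredoxin, differed by -2.44 ± 0.11 (SE, adjusted p = 9.64e-10) and -2.42 ± 0.11 (SE, adjusted p = 1.07e-09). AQP3 had FPKM of 4.48, 5.64 and 4.797 under DMSO and 22.8, 21.9 and 20.3 under OT in PC9, and 6.82, 5.85 and 5.92 under DMSO and 3.08, 3.21 and 2.98 under OT in HCC4006, so the groups of both lines were apart.

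The smaller class of genes with the larger response in PC9 included strong changes. TGM2, transglutaminase, had FPKM of 80.7, 81.03 and 76.2 under DMSO and 2.97, 2.71 and 2.45 under OT in PC9. It had 20.6, 22.05 and 19.3 under DMSO and 15.00, 11.4 and 10.96 under OT in HCC4006. The fall was 29.2-fold in PC9 and 1.66-fold in HCC4006, a difference of 3.74 ± 0.13 (SE, adjusted p = 1.65e-10). IGFBP4 and FOXQ1, a binding protein of insulin-like growth factors and a forkhead factor, also fell further in PC9 (1.89 ± 0.07 (SE, adjusted p = 2.20e-10) and 1.69 ± 0.08 (SE, adjusted p = 2.34e-09)). CD44, the hyaluronan receptor, fell 3.501-fold in PC9 and 1.43-fold in HCC4006, with a DMSO mean in HCC4006 of 1201 against 119 in PC9. IGFBP3, another of those binding proteins, rose 6.34-fold in PC9 and 2.12-fold in HCC4006 (-1.58 ± 0.06, SE, adjusted p = 4.31e-10). CLIC3, a chloride channel protein, and CITED2, a transcriptional coregulator, rose further in PC9, with differences of -1.57 and -1.500. ALDH1A3, a retinaldehyde dehydrogenase, and CDA, cytidine deaminase, rose in PC9 alone (-1.100 ± 0.06 (SE, adjusted p = 5.21e-09) and -1.73 ± 0.07 (SE, adjusted p = 7.99e-10)).

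Genes called in HCC4006 alone included SFTA1P, a transcribed pseudogene of the surfactant-associated family. Its FPKM was 28.1, 29.5 and 34.9 under DMSO and 29.1, 33.6 and 30.2 under OT in PC9, and 33.5, 35.8 and 34.3 under DMSO and 1.51, 1.83 and 1.26 under OT in HCC4006. PC9 groups overlapped, and HCC4006 fell 22.5-fold (-3.83 ± 0.13, SE, adjusted p = 9.69e-11). LEPREL1, a collagen prolyl hydroxylase, rose 4.94-fold in HCC4006 from 12.6 ± 1.11 (SD, n = 3) and was 5.32 ± 0.635 and 5.81 ± 0.331 in PC9 (2.11 ± 0.11, SE, adjusted p = 3.91e-09). SLC26A2, a sulfate transporter, fell in HCC4006 alone (-1.93 ± 0.10, SE, adjusted p = 6.83e-09), with -2.92 at a pseudocount of 0.01. CHAF1B, a subunit of the chromatin assembly factor, fell in PC9 alone, from 14.97 ± 1.23 to 4.43 ± 0.180 against 10.2 ± 0.492 and 10.1 ± 0.527 in HCC4006 (1.55 ± 0.09, SE, adjusted p = 1.60e-08). CEACAM6, a surface glycoprotein, fell in PC9 alone, but its 3 PC9 values under OT spread from 2.71 to 11.2 (1.35 ± 0.41, SE, adjusted p = 0.0125).

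The remaining lists were mixed, and the counts of several, such as WNT, NRF2 and circadian genes, were near the 35.1% of all genes called higher and the 25.6% lower. Inhibitors of the cell cycle and quiescence genes gave 12 higher and 4 lower of 22 (median 0.31), with the transcription factor KLF4 rising in HCC4006 and falling in PC9 (1.03 ± 0.10, SE, adjusted p = 1.35e-06). FOXO factors and genes of low PI3K activity gave 8 higher and 2 lower of 16 (median 0.37), with the forkhead factor FOXO4 at the top (1.71 ± 0.12, SE, adjusted p = 7.12e-08). Chemokines and NF-kappaB targets gave 9 higher and 2 lower of 13 (median 0.36), with the chemokine CXCL16 higher (1.52 ± 0.08, SE, adjusted p = 3.91e-09) and the cytokine IL18 lower (-1.17 ± 0.10, SE, adjusted p = 7.19e-07). The counts were 5 higher and 2 lower of 17 (median 0.05) for TGF-beta and BMP genes, 6 higher and 4 lower of 17 (median 0.06) for WNT regulators and 6 higher and 4 lower of 18 (median 0.02) for NRF2 antioxidant genes. Those medians changed sign in 1, 2 and 9 of 25 settings, and that of the EGF family ligands with 2 higher and 2 lower of 4 (median 0.10) in 2. Of 25 lung lineage and alveolar genes 4 were tested, with 3 higher and 1 lower (median 0.51). FOXA1 and SOX9, transcription factors of the airway, differed by 0.50 and 0.53, CAV1, the membrane protein caveolin, by -0.57, and HOPX, an alveolar homeodomain protein, differed by 1.84 ± 0.18 (SE, adjusted p = 2.00e-06). MYC, MAX and MXD genes gave 6 higher and 4 lower of 10 (median 0.30) and circadian clock genes 6 higher and 3 lower of 16 (median 0.14). Of the 6 epithelial cell line markers 4 were lower and none higher (median -1.11). COL1A1 was the tested fibroblast marker (0.45) and CD68 the tested leukocyte marker, both called higher, and no endothelial marker was tested.

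The same difference was then read in the YAP1 knockout cells of both lines, which share no library with the control cells. It was called upward in 4627 of the 11330 genes (40.8%) and downward in 3172 (28.0%). Of the 565 genes with a 2-fold higher response in control HCC4006 cells, 548 were called in the same direction, 1 in the opposite direction and 16 in neither. Of the 435 with a 2-fold lower response the numbers were 428, 0 and 7. These calls concern the difference and not each line's direction, whose knockout calls are not given here. By group means in knockout cells, ANKRD1, PCK2, NFE2L3, SOCS2, PHGDH, CD68, MET, BPGM, SLC22A18 and GLRX again moved in opposite directions. The PC9 ratio of OT to DMSO means was near 1 for PCK2 (0.949), SOCS2 (0.939) and CD68 (0.985). AQP3 and FBP1 (PC9 ratio 1.07) rose in both lines, while EFNB2, F3 (0.950), CDC42EP2 (0.704) and KRT18 (0.875) fell in both. Across all genes the control and knockout differences correlated with a Pearson r of 0.850, a description over genes that are not independent. The test of the control minus the knockout difference, over all 24 libraries, called 1507 genes (13.3%), 715 with the higher value in control cells (6.31%) and 792 with the lower (6.99%).

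S-phase genes differed between knockout and control cells. For 28 of 33 the difference between the lines was lower in control than in knockout cells, and for 0 higher, against 6.99% and 6.31% of all genes. The median response of the list was -1.75 in control and -2.45 in knockout PC9 cells, and -2.71 and -2.87 in HCC4006. The median difference between the lines was thus -1.04 in control and -0.39 in knockout cells. In knockout PC9 cells RRM2 had FPKM, in rising order, of 54.1, 54.3 and 55.6 under DMSO and 4.13, 4.32 and 4.77 under OT. In knockout HCC4006 cells it had 64.9, 66.9 and 68.1 and 0.759, 0.856 and 1.32, and the control minus knockout value of its difference was -0.78 (adjusted p = 0.0152), a call lost with a pseudocount of 0.1 (-0.59, adjusted p = 0.241) and of 0.01 (-0.55, adjusted p = 0.317). The S-phase count was between 23 and 29 over 35 settings. For G2/M genes 11 of 32 were called the other way, with medians of -2.59 in control and -2.77 in knockout cells.

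Of the YAP and TEAD targets, 12 of 24 had a higher difference between the lines in control than in knockout cells. A lower one was called for 0, beside 6.31% of all genes higher and 6.99% lower. Over 35 settings 11 to 15 were higher and 0 to 1 lower, with 19 to 27 tested. CTGF in knockout cells had FPKM of 11.005, 11.5 and 13.2 under DMSO and 8.08, 8.26 and 8.595 under OT in PC9. In HCC4006 it had 15.04, 15.1 and 15.6 and 3.11, 3.62 and 3.65. The difference between the lines was therefore -1.399 in knockout cells, where control cells had -0.05, and these differed by 1.35 (adjusted p = 9.10e-06). BMF in knockout cells had 1.33, 1.63 and 1.79 under DMSO and 40.9, 41.4 and 43.4 under OT in PC9. In HCC4006 it had 7.997, 8.07 and 8.78 and 152, 159 and 159. BMF thus rose 26.5-fold in knockout PC9 and 18.9-fold in knockout HCC4006 cells. Its difference between the knockout lines was 0.03, against 1.24 in control cells (adjusted p of the change = 3.37e-06). With a pseudocount of 0.01 these were -0.49 and 0.83, so the sign in knockout cells depended on the pseudocount, and the change of 1.32 was still called (adjusted p = 3.44e-05). MET differed by -4.12 in knockout and -2.95 in control cells (adjusted p = 3.07e-08), and ANKRD1 by 3.21 and 3.497 (adjusted p = 0.325). Of the ATF4 list, 14 of 24 genes had a lower difference in control than in knockout cells, PHGDH among them (2.18 and 2.89). A higher one was called for 2, beside those same shares of all genes. Over 35 settings 12 to 15 were lower and 0 to 2 higher, with 19 to 25 tested. Other lists shifted as well. Focal adhesion and actin genes gave 13 of 33 higher in control cells and 3 lower, and cytosolic tRNA synthetases 0 of 19 higher and 10 lower. Mesenchymal genes gave 5 of 16 higher and 0 lower, and WNT regulators 5 of 17 higher and 1 lower. Proteasome subunits gave 0 of 27 either way. The labels name no separate knockout clones. Headers of the deposited columns give the knockout cells of each line a single designator, which differs between PC9 and HCC4006 and is not explained. Genotype and cell population therefore cannot be told apart here.

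**Figure D5:**
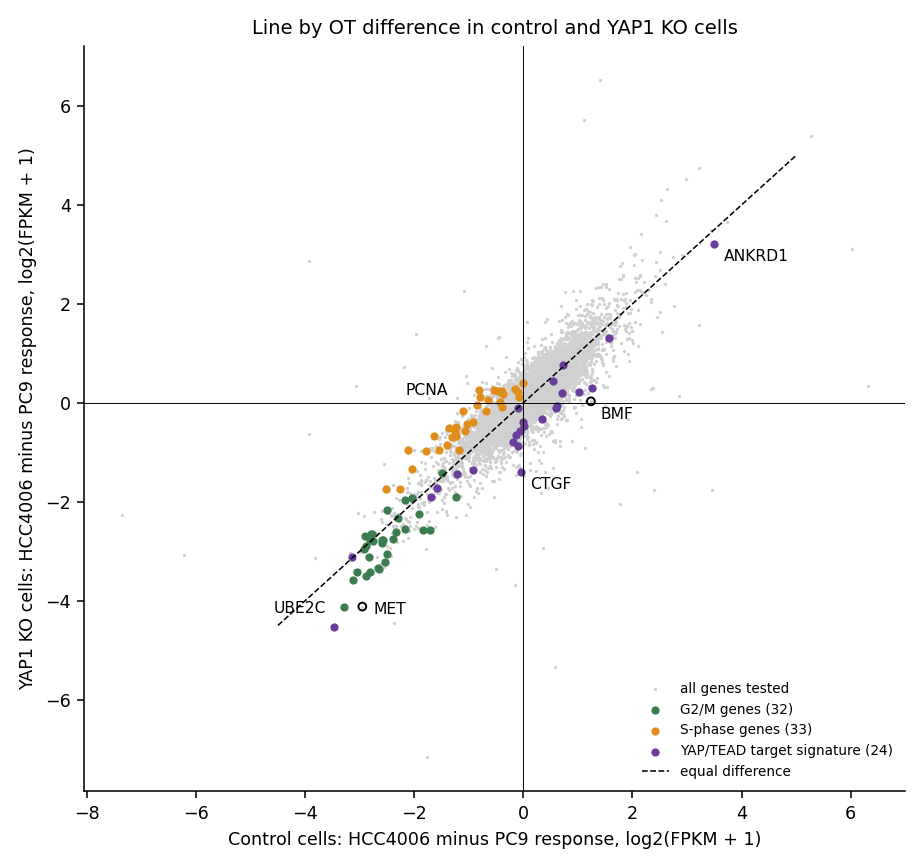
The difference between the lines in control cells (x axis) and in YAP1 knockout cells (y axis) for all tested genes, in log2(FPKM + 1), with G2/M, S-phase and YAP and TEAD genes coloured and a dashed line of equal differences. All 33 S-phase genes lie above the line, and CTGF and BMF lie below it.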

How the data were processed

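RNA from 24 libraries had been sequenced with a stranded mRNA kit, and the authors deposited FPKM values per gene, 1 column a library. Per the submitters' processing notes the tools were STAR 2.5.1b, Cufflinks 2.2.1 and DESeq2 1.10.1 and the builds hg19 and GRCh37, with the gene annotation not given in the sources used here. The deposited FPKM values hold no read counts, so absolute depth is unknown, and no counting interval is given.

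From the FPKM values, log2(FPKM + 1) was fitted with limma 3.58.1 (R 4.3.3) as 4 group means over the 12 control libraries, with moderated variance following mean level. P-values were adjusted by Benjamini-Hochberg over all 11330 tested genes and called at 0.05. The control minus knockout difference was fitted over all 24 libraries. On simulated data for 11330 genes, changes of 0.5 and 1 on the log2 scale were recovered in 79% and 99% of cases. Of the calls 9.64% were of unchanged genes, a share above the 0.05 used for calling. Changes were planted only in genes whose simulated level was not low in any group, so recovery in low genes was not measured. Far fewer genes were changed there than were called in the data. Library pairing by replicate number was checked by the correlation of deviations from group means. It was -0.05, 0.01 and -0.04 in PC9 and 0.08, 0.23 and 0.15 in HCC4006. As only HCC4006 showed a sign of pairing, numbers were not taken as pairs in the main fit, and a replicate block served as an alternative.

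The genes and the 41 lists (862 memberships, 698 tested) were chosen with earlier results of these data known. Genes are named when called, with a group mean FPKM of at least 5 in each line, and among the largest differences of their class (8 for each opposite class, 6 for each class called in both lines, 4 for each class called in 1) or the 3 largest of their list, together with a set of genes named whatever their result. A few genes counted in the fits and lists are not reported here by name. Other list members given as examples were chosen after their values were seen. Rows of short RNAs, and 28 rows whose symbols had become dates, stayed in the fits and were not named. Promoters came from RefSeq on GRCh38.p14, matched by symbol. Alternatives were other pseudocounts, filters and scalings, library weights, no intensity trend, a replicate block, a fit of all libraries together, and each library left out. Filters can change how many list members are tested, so counts over settings do not share 1 denominator. The calls over all genes also moved, to 3221 upward and 3672 downward after median-of-ratios scaling, while the shares printed beside lists are those of the main fit. Python 3.11.15, pandas 2.3.3 and matplotlib 3.10.9 were used for tables and plots.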

Additional observations from a re-analysis of the deposited data

Results flagged for a closer look

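The OT responses of the lines differed, by the test of the difference itself, in 6885 genes of control cells, and the values below are those differences on the log2 scale. Among genes with opposite responses, the HCC4006 response was higher for ANKRD1 (3.497), PCK2 (2.504), NFE2L3 (2.43), SOCS2 (2.25), PHGDH (2.18), FBP1 (2.12), CD68 (2.05) and EFNB2 (2.05). It was lower for F3 (-3.48), CDC42EP2 (-3.03), MET (-2.95), AQP3 (-2.74), BPGM (-2.58), KRT18 (-2.45), SLC22A18 (-2.44) and GLRX (-2.42).

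Of the genes named whatever their result, the difference was called for DUSP6 (-2.93), CCND1 (-2.48), BMF (1.24), BCL2L11 (0.34), MSMO1 (-2.26), INSIG1 (-1.62), HMGCS1 (-2.097), MKI67 (-1.83), VTCN1 (2.597), MYC (-1.56) and ERBB3 (0.60). The control minus knockout value of that difference was called for MET (1.17), BMF (1.21), CTGF (1.35), CYR61 (0.51), AXL (0.49), HMGCS1 (0.30) and MKI67 (0.73), and for YAP1 (-0.48), the gene targeted in the knockout cells.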

How the results depend on the processing

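Over the 156 genes that the naming rule gave and their alternatives, 3715 of 3739 recomputed values kept direction and side of the threshold, 21 lost the call, 3 gained it and 0 reversed; ETV4, a list member outside that rule, changed sign as given above. Over all genes, called differences changed sign for 11 genes with a pseudocount of 0.1 and 17 with 0.01, 1 and 4 of them 2-fold ones, and for 5 at equal FPKM sums and 31 at equal sums without short RNAs, 0 of them 2-fold ones. Upward 2-fold calls (565) were 963 and 1025 with pseudocounts of 0.1 and 0.01, 884 without the filter, 305 at FPKM of at least 5 and 871 at equal FPKM sums without short RNAs. At FPKM of at least 5, where fewer genes are tested, upward calls were 2288, those in knockout cells 2765, and genes that rose 2115 in PC9 and 2791 in HCC4006. Downward calls were 1859 at equal sums without short RNAs, and those for control minus knockout 495 at equal sums. The test against a difference of 1 in size, in place of no difference, called 188 genes upward and 234 downward. The cause was not tested.

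Leaving out 1 library at a time gave 3689 to 4152 upward and 2664 to 2967 downward calls, and 549 to 578 and 421 to 451 at 2-fold. It gave 2917 to 3465 genes that rose and 4109 to 4729 that fell in PC9, and 4618 to 4823 and 4311 to 4466 in HCC4006. In knockout cells the calls were 4434 to 4550 and 3056 to 3141, and for control minus knockout 601 to 914 and 654 to 994.

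With the replicate number as a block, 4015 genes were called upward and 2953 downward, 565 and 437 of them 2-fold. In HCC4006 the same-number correlations were 0.08, 0.23 and 0.15, each library correlating best with its own number, which in PC9 was not so.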

Other observations

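Genes measured in 1 line only have no tested difference, and the ones given here were chosen after their values were seen. In HCC4006, with FPKM as mean ± SD of 3 libraries, ANGPTL4, an inhibitor of lipoprotein lipase, went from 30.4 ± 1.77 under DMSO to 0.490 ± 0.408 under OT. HAS3, a hyaluronan synthase, went from 35.6 ± 1.72 under DMSO to 1.25 ± 0.339 under OT, and SPDEF, a transcription factor of secretory epithelium, from 53.5 ± 1.24 under DMSO to 3.02 ± 0.379 under OT. In the other direction SPINK1, a trypsin inhibitor, went from 15.03 ± 1.46 under DMSO to 190.2 ± 29.1 under OT, CXCL17, a mucosal chemokine, from 1.83 ± 0.701 under DMSO to 28.4 ± 1.45 under OT, and TRIM22, an interferon-induced ligase, from 0.195 ± 0.0888 under DMSO to 15.5 ± 1.698 under OT. The highest PC9 value of these 6 genes was 2.92, for SPINK1.

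In PC9, IL1R2, the decoy receptor of interleukin 1, went from 11.4 ± 0.409 under DMSO to 0.588 ± 0.0580 under OT, and CALB2, calretinin, from 93.00 ± 2.33 under DMSO to 29.5 ± 0.238 under OT. ALPPL2, a germ cell alkaline phosphatase, went from 1.96 ± 0.138 under DMSO to 24.04 ± 1.75 under OT, and ALPP, the placental one, from 15.5 ± 0.495 under DMSO to 185 ± 4.36 under OT. These phosphatase genes are near-identical copies, so their reads may have been split between them. OLR1, a receptor of oxidised LDL, went from 3.24 ± 0.132 under DMSO to 41.6 ± 0.575 under OT. In HCC4006 none of these 5 exceeded 0.961, the highest value of CALB2.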
